A study of Mus musculus with 27 samples.

Results

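A set of 10 epithelial genes was followed through RNA-seq of mouse embryonic fibroblasts (MEFs), namely the basal keratins *Krt5*, *Krt14* and *Krt15* with the basal transcription factor *Trp63*, the simple keratins *Krt7*, *Krt8*, *Krt18* and *Krt19*, and the adhesion genes *Cdh1* and *Epcam*. They are 10 of the 37310 genes in the count table and were matched there by symbol. The group was chosen by readout: *Krt5* was singled out on its low level in female *Firre* knockout (KO) against female wild-type (WT) MEFs, and epithelial markers as a group had differed between female and male WT MEFs. The values of *Krt5* in the female contrast, and of all members between female and male WT MEFs and in the difference of the KO effect between the sexes, are therefore given as a description with no test. Female KO against WT holds the same female WT libraries, so the other members are not free of the choice there either.

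The study deleted the entire *Firre* long non-coding RNA locus on chromosome X by recombination between loxP sites in the mouse, and compared MEFs of both genotypes and both sexes. There were 4 groups, female WT, female *Firre* KO, male WT and male *Firre* KO, with 3 libraries each, and none was labelled with a drug treatment. MEFs are mixed connective tissue cells grown from mid-gestation embryos after removal of the viscera, head and limbs, and were used at low passage. Nothing in the labels states that the replicates came from separate embryos, so the p-values measure only the spread between these libraries, and sex cannot be told apart from the embryo or line. Depth was 42986516 to 65454660 expected counts per library. The deleted gene, listed under its older symbol *6720401G13Rik*, had 90 to 129 counts in the female WT libraries, 239 to 307 in the male WT libraries and 0 in each of the 6 KO libraries. The fibroblast label was checked on 10 defining genes, all of which were detected, and their summed level was 16092 to 23570 CPM (counts scaled to library size) in every library.

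Keratins build the intermediate filaments of epithelial cells from pairs of an acidic and a basic chain. *Krt5* pairs with *Krt14* in the proliferating basal layer of stratified epithelia such as epidermis, where *Krt15* is also found and *Trp63* (p63) sustains the lineage. *Krt8* pairs with *Krt18* in simple, single-layered epithelia, often beside *Krt7* and *Krt19*, and these simple keratins are also made by mesothelium. *Cdh1* (E-cadherin) and *Epcam* join epithelial cells to each other and are normally silent in fibroblasts. In bulk RNA, fewer cells of a type and less RNA per cell cannot be told apart.

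In mm9 the keratin genes lie in 2 clusters, of which the acidic one is on chromosome 11 and the basic one, with *Krt18* beside it, on chromosome 15. *Krt5* spans chr15:101537501-101543322 on the minus strand and *Krt14* spans chr11:100064476-100068862 on the minus strand. Keratin coding sequences carry stretches that are identical in another keratin, which bears on how reads were shared out: a read inside such a stretch matches both genes, and RSEM then splits it by estimate. The longest stretch that *Krt14* shared with any of the 49 other keratins was 134 bases, identical in *Krt16* (coding bases 306 to 439, exon 1, chr11:100068331-100068464, minus strand). It is printed here from the mm9 transcripts, with no capitals because the whole run is shared.

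Krt14 and Krt16: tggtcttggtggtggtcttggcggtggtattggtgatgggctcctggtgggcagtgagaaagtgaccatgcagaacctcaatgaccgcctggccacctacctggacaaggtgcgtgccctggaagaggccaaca

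In the simple keratins and *Krt15* the longest shared run was 59 bases in *Krt15*, 41 in *Krt7*, 38 in *Krt8*, 35 in *Krt19* and 22 in *Krt18*. Expected counts with a fractional part, which split reads can leave, occurred in 5 of 12 libraries for *Krt5*, 7 for *Krt14*, 11 for *Krt7* and 0 for the other members. Which genes shared those reads was not tested, and *Krt73*, the partner in the run of *Krt7*, had 0 counts in every library. Levels of *Krt5*, *Krt14* and *Krt7* are less certain for this reason. *Krt16* and *Krt6a* were, like *Krt5* and *Krt14*, highest in female WT replicate 3.

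The basal keratins were high in 1 library. *Krt5* was at 0.982, 2.30 and 14.3 CPM in female WT replicates 1, 2 and 3, at 0.521, 0.365 and 0.730 CPM in the female KO, at 0.0844, 0.145 and 0.0187 CPM in the male WT and at 0.152, 0.0463 and 0.363 CPM in the male KO. The female WT libraries were all above the female KO libraries, which were all above the male libraries of both genotypes, the lowest female KO value only just (0.365 against 0.363 CPM). Female WT replicate 3 alone held 761 of the *Krt5* counts, against at most 104 in any other library and 1 to 18.8 in the male libraries. *Krt14* was at 3.02, 5.55 and 17.1 CPM in female WT, 1.09, 1.12 and 2.32 CPM in female KO, 0.135, 0.387 and 1.24 CPM in male WT and 0.372, 0.231 and 1.45 CPM in male KO. As for *Krt5*, female WT replicate 3 was the highest and the female groups did not overlap, but female KO and male values overlapped.

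*Krt15* and *Trp63* rose above trace level in the same library. *Krt15* had 238 counts, or 4.48 CPM, in female WT replicate 3. It had 0 counts in female WT replicates 1 and 2, where a count of 0 allows up to 0.0698 and 0.0662 CPM, and 1 to 6 counts in the remaining 9 libraries. It was the member that failed the filter on low counts, so 9 of 10 members entered the fit. *Trp63* was at 0.187, 0.0884 and 1.07 CPM in female WT, 0.317, 0.0858 and 0.221 CPM in female KO, 0.0337, 0.0645 and 0.0187 CPM in male WT and 0, 0.0463 and 0.0573 CPM in male KO. Outside female WT replicate 3, which had 57 *Trp63* counts, no library had more than 14.

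**Figure D1:**
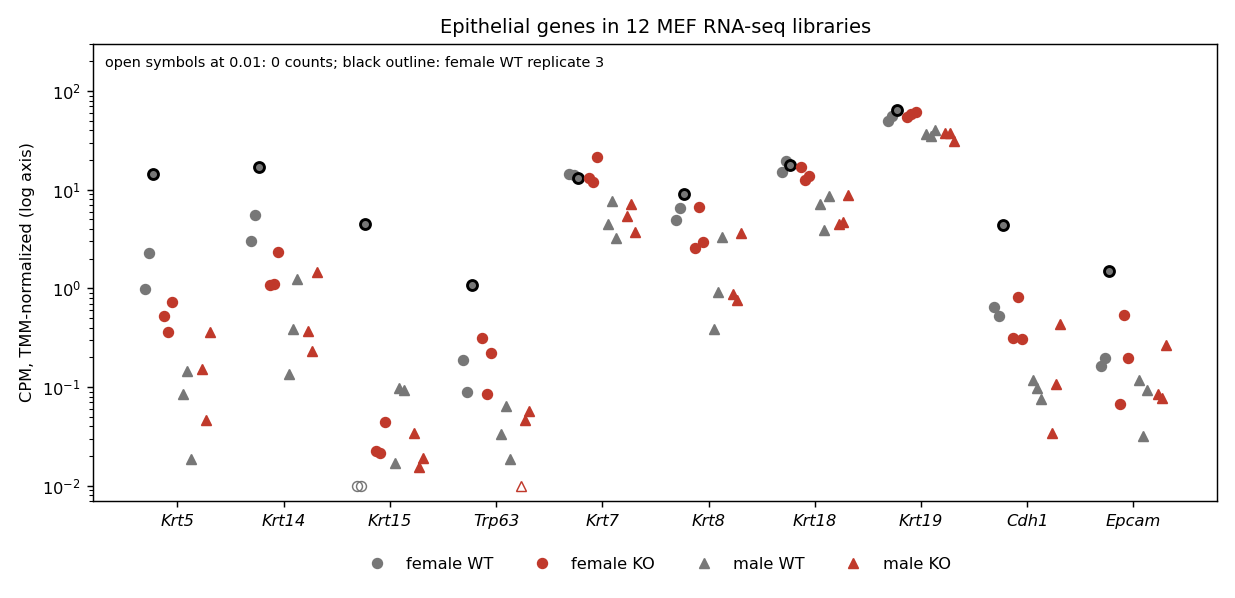
TMM-normalized CPM of the 10 members (log axis) in each of 12 libraries, with circles for female and triangles for male libraries, gray for WT and red for KO. Each point is 1 library. Female WT replicate 3 (black outline) stands above all other libraries for Krt5, Krt14, Krt15, Trp63, Cdh1 and Epcam, and within or close to them for Krt7, Krt8, Krt18 and Krt19.

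The simple keratins were present in every library, did not single out female WT replicate 3 and were lower in most male libraries. *Krt19*, the most abundant member, was at 49.8, 56.5 and 64.6 CPM in female WT, 54.6, 58.2 and 61.4 CPM in female KO, 36.4, 35.3 and 40.3 CPM in male WT and 37.7, 37.6 and 31.5 CPM in male KO. All 6 female libraries were above all 6 male libraries. *Krt18* was at 15.1, 19.4 and 17.6 CPM in female WT, 17.0, 12.5 and 13.7 CPM in female KO, 7.15, 3.89 and 8.64 CPM in male WT and 4.45, 4.66 and 8.80 CPM in male KO, and again no male library reached the female range. *Krt7* was at 14.3, 14.0 and 13.3 CPM in female WT, 13.0, 11.9 and 21.4 CPM in female KO, 4.45, 7.62 and 3.22 CPM in male WT and 5.37, 7.11 and 3.72 CPM in male KO. Its highest library was female KO replicate 3, not female WT replicate 3. *Krt8* was at 4.93, 6.48 and 9.12 CPM in female WT, 2.54, 6.67 and 2.92 CPM in female KO, 0.388, 0.920 and 3.32 CPM in male WT and 0.880, 0.771 and 3.61 CPM in male KO. Replicate 3 of each male group held 177 and 189 *Krt8* counts against 23 to 57 in the other male libraries, so for *Krt8* the sexes overlapped in the KO.

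The adhesion genes were also highest in female WT replicate 3. *Cdh1* was at 0.654, 0.530 and 4.43 CPM in female WT, 0.317, 0.815 and 0.310 CPM in female KO, 0.118, 0.0968 and 0.0750 CPM in male WT and 0.0339, 0.108 and 0.439 CPM in male KO. *Epcam* was at 0.164, 0.199 and 1.49 CPM in female WT, 0.0679, 0.536 and 0.199 CPM in female KO, 0.118, 0.0323 and 0.0937 CPM in male WT and 0.0846, 0.0771 and 0.267 CPM in male KO. Female KO replicate 2 was the next library after female WT replicate 3 for both genes, with 38 *Cdh1* and 25 *Epcam* counts. Within the female libraries other than WT replicate 3, as a description over 5 libraries on log2(CPM + 1), *Cdh1* and *Epcam* had r = 0.88 and 0.68 with *Krt8* and r = -0.03 and -0.30 with *Krt5*. Over all 6 female libraries r was 0.77 and 0.78 with *Krt8* and 0.91 and 0.83 with *Krt5*, while Spearman's rho was 0.89 and 0.83 with *Krt8* and 0.31 and 0.26 with *Krt5*. Which gene they ran closer to thus depended on female WT replicate 3 and on the measure.

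Per length, as approximate TPM (level scaled by merged exon length and library total), *Krt19* was first and *Krt18* next in every group. In female WT they stood at 86.4 ± 12.4 and 34.9 ± 4.23 TPM (SD, n = 3), with ranges that overlapped neither each other nor the next gene. There followed *Krt14* at 13.8 ± 12.3, *Krt8* at 10.7 ± 3.46, *Krt5* at 7.63 ± 9.65 and *Krt7* at 5.52 ± 0.148 TPM, each with a range that overlapped its neighbour's. In female KO the order was *Krt19* (86.2 ± 4.56), *Krt18* (28.4 ± 4.70), *Krt8* (6.16 ± 3.48), *Krt7* (6.02 ± 1.98), *Krt14* (2.35 ± 1.09) and *Krt5* (0.681 ± 0.227 TPM), and of these neighbours only *Krt8* and *Krt7* overlapped. In the male groups *Krt19* was at 57.5 ± 4.54 (WT) and 55.0 ± 4.26 TPM (KO) and *Krt18* at 13.4 ± 5.04 and 12.3 ± 5.39 TPM. *Krt5* was at 0.107 ± 0.0818 and 0.246 ± 0.216 TPM there, with ranges that overlapped those of its neighbours in the order. *Trp63* was at or under 0.152 TPM on average in every group, its 3 counts or fewer in 5 of the 6 male libraries being too few to rank.

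Female WT replicate 3 was compared with the other 11 libraries because it stood apart, a choice made after its values were seen. In it *Krt5* was 6.24-fold, *Cdh1* 5.43-fold, *Trp63* 3.39-fold, *Krt14* 3.08-fold and *Epcam* 2.78-fold above the highest of the other 11 libraries. *Krt8* was 1.37-fold and *Krt19* 1.05-fold above, while *Krt18* and *Krt7* were at 0.909 and 0.621 of that highest value. The summed level of the 4 basal members was 37.0 CPM against at most 7.93 CPM elsewhere, and that of *Cdh1* and *Epcam* 5.91 against at most 1.35 CPM. The summed level of the 4 simple keratins was 104.6 against at most 99.4 CPM.

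Several other keratins and epidermal genes were high in the same library, but not all. Of 6 tested genes on the list of other keratinocyte genes, 3 were highest there. The others, *Sfn*, *Ivl* and *Krt13*, ranked 2, 5 and 10 of the 12 libraries. *Krt1*, a keratin of the suprabasal epidermis, had 899 counts there and at most 1 in any other library. Its partner *Krt10* had 740 counts there and 61 to 95 elsewhere. *Krt77* had 25 counts against at most 1. *Krt6a*, a keratin of activated and follicular keratinocytes, was at 1.47, 4.27 and 6.78 CPM in female WT and 0.279 to 0.770 CPM in female KO, and of the male libraries only male KO replicate 3 had any, at 0.496 CPM. The table held 50 keratins, of which 17 had at least 10 counts in some library, 13 were tested and 10 were at 0 counts throughout. Of the 13 tested, 8 were highest in female WT replicate 3, given as a description. *Krt20*, a simple keratin that was not among the members, was the second most abundant keratin and was at 31.8 CPM in that library, within the 31.1 to 33.7 CPM of the other female WT libraries.

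**Figure D2:**
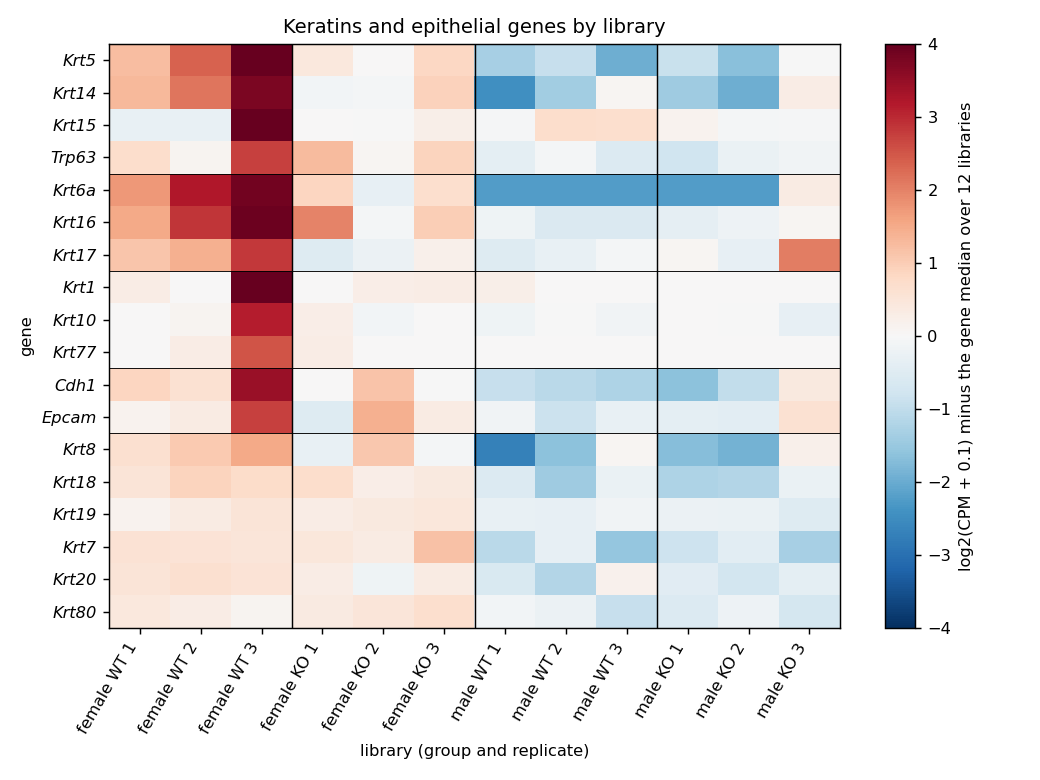
Color gives log2(CPM + 0.1) of each gene (rows) minus its median over the 12 libraries (columns, 4 groups of 3). Basal and epidermal genes (Krt5 to Krt77) and the adhesion genes are red mainly in female WT replicate 3, whereas Krt18, Krt19, Krt7 and Krt20 are not highest there by a wide margin.

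Counting genes with at least 20 counts in a library and a level over 4-fold above all 11 others, female WT replicate 3 had 39 and each other library 0 to 3. At a minimum of 50 counts, added after the data were seen, it had 22 and the others 0 to 2. Of the 39 genes, 10 were keratins or on the epithelial lists, among them the members *Krt5*, *Krt15* and *Cdh1*. The others on lists were *Krt1*, *Krt10*, *Krt77*, *Col17a1* (a collagen that anchors basal cells), *Dsc3* (a desmosomal cadherin), *Esrp1* (an epithelial splicing factor) and *Grhl2* (an epithelial transcription factor). The remaining 29 included the genes of differentiating epidermis *Hrnr* (114 counts against 0 elsewhere), *Asprv1* (103 against at most 3), *Krtdap* (61 against at most 5) and *Dmkn* (111 against at most 3). They also included genes not known for epidermis, such as *Ttr* (29 against 0), a hormone carrier of liver and choroid plexus, and *Dbh* (21 against at most 3), an enzyme of noradrenaline synthesis.

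Summed levels of marker lists of other cells lay within or close to the range of the other libraries, but some of their genes stood apart. The endothelial genes *Cdh5* and *Pecam1* were 2.66-fold and 2.20-fold above the highest of the other 11 libraries, close to the 2.78-fold of *Epcam*, and 5 of 7 tested muscle genes were highest in female WT replicate 3, by at most 1.38-fold (*Myog*). Against the mean of the other female WT libraries these muscle genes stood higher, *Myod1* by 7.09-fold, *Myog* by 5.77-fold, *Myh3* by 5.64-fold, *Mylpf* by 4.22-fold and *Tnnt3* by 3.73-fold, beside 8.74-fold for *Krt5*, 7.47-fold for *Cdh1* and 3.99-fold for *Krt14*. The summed level of that library was 39.7 CPM for the mesothelial list against 14.3 to 42.6 CPM elsewhere and 90.9 CPM for the macrophage list against 8.77 to 135.3 CPM. For skeletal muscle it was 150.7 against at most 146.5 CPM, for endothelium 36.1 against at most 32.4 CPM, for Schwann and neural cells 116.3 against at most 113.6 CPM, and for melanocytes 0.735 against at most 2.34 CPM. Each of these was at most 1.11-fold the highest other library. Of the 5 wider epithelial lists, that of other keratinocyte genes summed to 1.84-fold (76.7 against 41.7 CPM), tight junction to 1.47-fold (17.4 against 11.8 CPM) and epithelial regulators to 1.15-fold the highest other library, and desmosome and basement membrane attachment to 0.994 and 0.888 of it. These sums follow their most abundant genes. Of the 42 genes on these 5 lists with at least 10 counts in some library, 29 were highest in female WT replicate 3. There 16 genes of these lists stood over 2-fold above all other libraries, beside 0 muscle and 2 endothelial genes. These counts are a description, since a gene could qualify through that library alone. The fibroblast list summed to 16092 CPM, the lowest of the 12 libraries, with *Fn1* (6457 CPM) and *Vim* (5228 CPM) as its largest parts. Its genes did not all go that way. *Fn1* ranked 12 of 12 there and *Col1a1*, *Col1a2* and *Thy1* 11, but *Dcn* and *Lum* ranked 2 and *Col3a1* 5. The repressors of epithelial genes *Snai1*, *Snai2*, *Zeb1*, *Zeb2* and *Twist1* summed to 263.8 CPM against 258.0 to 318.6 CPM.

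**Figure D3:**
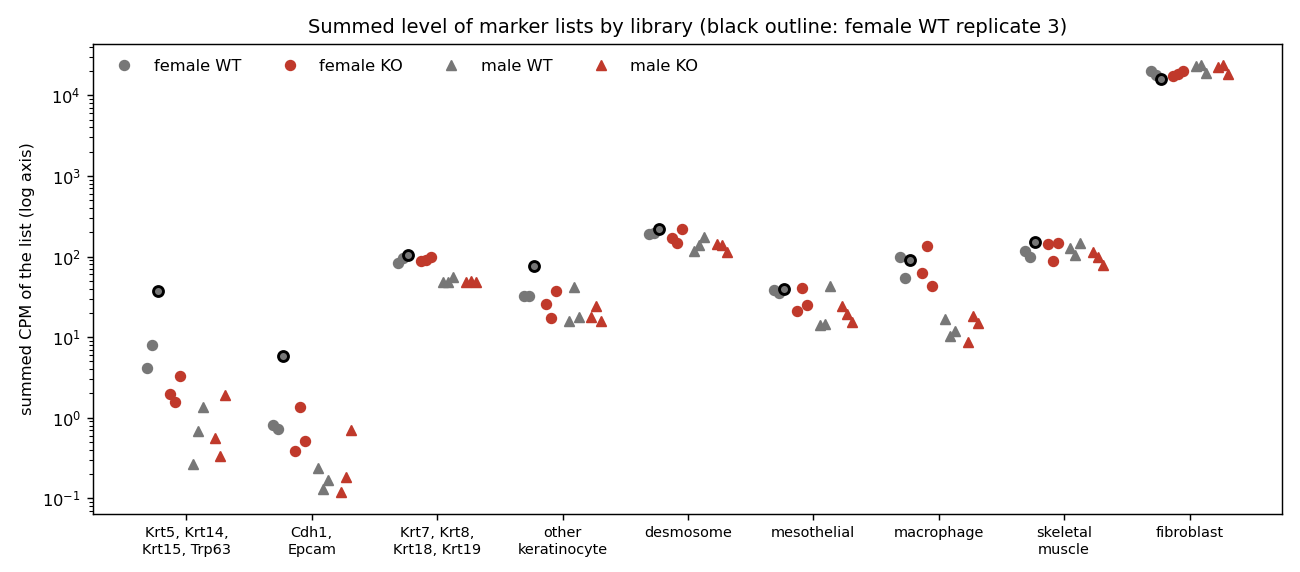
Summed CPM (log axis) of marker lists in each library, with circles for female and triangles for male libraries, gray for WT and red for KO. Female WT replicate 3 (black outline) is at 37.0 CPM for the basal members against at most 7.93 CPM elsewhere, but inside or close to the range of the others for the simple keratins, mesothelium, macrophages, muscle and fibroblasts.

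Whether basal and simple genes moved together was asked within each sex on log2(CPM + 1), since the sexes stood apart. In the 6 female libraries the 45 pairs of members had a median Pearson r of 0.59, and 36 pairs were positive. The median was 0.90 for the 6 pairs within the basal group, 0.10 for the 6 pairs within the simple group and 0.53 for the 16 pairs across the 2 groups. Without female WT replicate 3 the median over all pairs was -0.14 with 19 of 45 positive, within the basal group it was -0.41, within the simple group -0.14 and across groups 0.19. In the 6 male libraries the median was 0.07, with 0.17 within the basal group, -0.19 within the simple group and 0.04 across. The 9 female pairs with *Krt5* are a description with no test, since the KO and WT libraries by which *Krt5* was chosen enter them. By the exact permutation test over 6 libraries, none of the other 81 relations reached an adjusted p under 0.05, the lowest adjusted p being 0.125 (Benjamini-Hochberg over all 90). The smallest p that 720 orders can give, 0.00139, is itself 0.125 after adjustment when 1 pair alone reaches it, so a single pair could not pass and the outcome says little about the pairs. Same-numbered male libraries deviated together, and in the 48 permutations that keep these pairs, added after the data were seen, the lowest adjusted p over the 45 male relations was 0.469. The smallest p of those permutations, 0.0208, could not pass for a single pair either. WT and KO libraries enter each of these correlations together, and 3 libraries per genotype are too few for a value within each.

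Of the pairs fixed for naming, *Krt5* with *Krt14* had r = 0.97 and Spearman's rho = 0.94 in female libraries, as a description. Without the 2 libraries farthest from the median *Krt5* level, female WT replicates 2 and 3, r was 0.95, and without female WT replicate 3 alone it was 0.96, values that hold the KO-WT difference by which *Krt5* was chosen. With the WT and KO means removed r was 0.97 over the 6 libraries. In male libraries, where *Krt5* had 1 to 18.8 counts, the pair had r = 0.44 and rho = 0.31 (exact permutation p = 0.386 and 0.564, adjusted 0.656 and 1.00; exact permutation p = 0.0625 and 0.417 with the pairs kept, adjusted 0.469 and 1.00), and r was 0.77 without male WT replicate 3 and male KO replicate 3. Without male KO replicate 3 alone r turned to -0.47.

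*Krt8* with *Krt18* had r = 0.20 and rho = 0.14 in female libraries (exact permutation p = 0.668 and 0.803, adjusted 0.841 and 1.00), and 0.30 without female KO replicates 1 and 3. In male libraries it had r = 0.68 and rho = 0.43 (exact permutation p = 0.181 and 0.419, adjusted 0.443 and 1.00; 0.562 and 0.604 with the pairs kept, adjusted 0.873 and 1.00), which turned to -0.99 without replicate 3 of both genotypes, so the male relation rested on those libraries. *Krt5* with *Krt8*, the pair across the 2 kinds of epithelium, had r = 0.69 and rho = 0.43 in female libraries, as a description. It fell to -0.19 without female WT replicates 2 and 3, so this relation too rested on those libraries. In male libraries it had r = 0.38 and rho = 0.31 (exact permutation p = 0.488 and 0.564, adjusted 0.783 and 1.00; 0.146 and 0.417 with the pairs kept, adjusted 0.536 and 1.00), and 0.49 without replicate 3 of both genotypes. Without male KO replicate 3 alone r turned to -0.54.

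Chosen after its values were seen, *Krt14* with *Krt8* in male libraries had r = 0.995 and rho = 1.00 (exact permutation p = 0.00139 and 0.00278, adjusted 0.125 and 0.250). With the pairs kept the exact permutation p was 0.0208 for both, the smallest that 48 permutations can give, and 0.469 and 0.703 after adjustment. It had r = 0.93 without replicate 3 of both genotypes. Those libraries held 66 and 76 *Krt14* counts against 8.09 to 24 in the other male libraries, and the same pair of libraries held most of the male *Krt8* counts. Replicate 3 also stood farther from replicates 1 and 2 in each male group than these from each other. The chi-square per degree of freedom between libraries was 37.8 and 45.1 in WT and 40.3 and 40.1 in KO, against 13.7 and 7.55. *Cdh1* with *Epcam*, likewise chosen afterwards, had r = 0.97 and rho = 0.60 in female libraries (exact permutation p = 0.0167 and 0.242, adjusted 0.250 and 1.00), and r = 0.76 without female WT replicate 3.

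**Figure D4:**
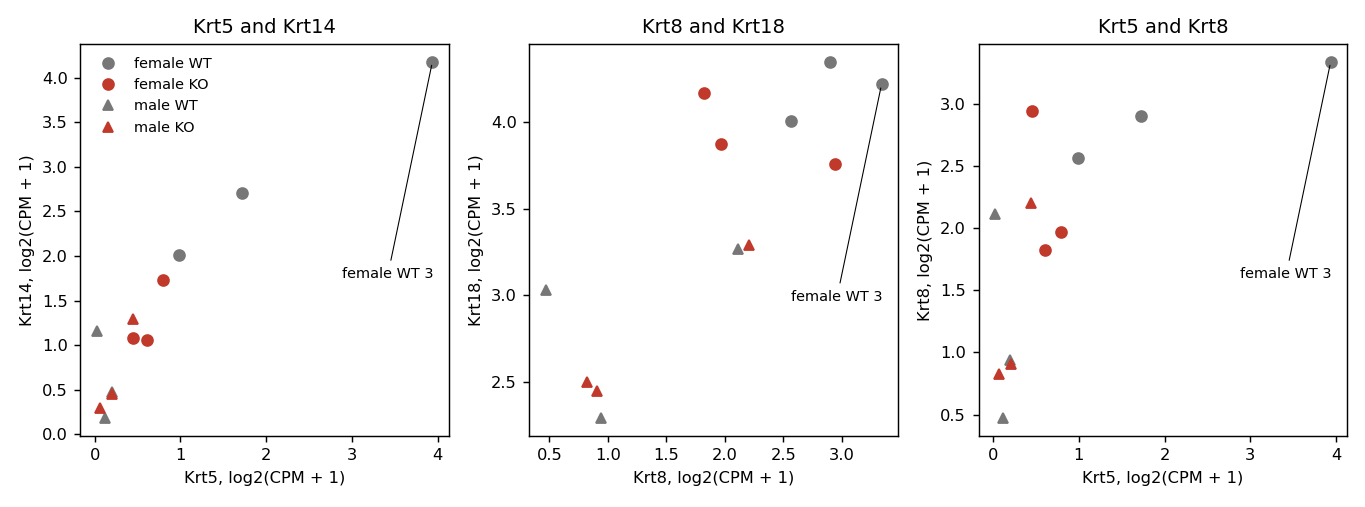
Levels of Krt5 and Krt14 (left), Krt8 and Krt18 (middle) and Krt5 and Krt8 (right) as log2(CPM + 1), with 1 point per library, circles female, triangles male, gray WT and red KO. In female libraries r was 0.97 for Krt5 and Krt14, with WT replicate 3 far to the upper right, and 0.20 for Krt8 and Krt18.

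Over all 12 libraries with each group mean removed, the tested genes outside the members most like *Krt5* included *Col17a1* (r = 0.98), *Bex4* (0.96), *Pkp3* (0.96) and *Krt10* (0.95). *Pkp3* encodes a desmosomal plaque protein. Among 15386 genes ranked this way, *Trp63* was at rank 20 (r = 0.90), *Cdh1* at 37 (0.89), *Epcam* at 65 (0.86) and *Krt14* at 77 (0.85). *Krt19* came at rank 711, *Krt8* at 3087, *Krt18* at 5325 and *Krt7* at 8319. The first 100 held 14 of the 41 tested genes of the epithelial lists and the keratins, which made up 0.266% of the genes ranked. Without female WT replicate 3 the most like were *Gm13563*, *Smg6*, *Krt6a*, *Ndufs1* and *Polr2h*, the first 100 held 1 of the 41, and *Krt14* was at rank 376 (0.63), with *Trp63* at 8701 and *Cdh1* at 9590. These r values describe 12 libraries, 1 of which has a far higher level than the rest.

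In female MEFs no tested member was called different between KO and WT. *Krt5*, as a description, averaged 0.538 ± 0.183 CPM in KO against 5.87 ± 7.36 CPM in WT (SD, n = 3), a log2 fold change of -3.45. *Krt14* averaged 1.51 ± 0.705 against 8.55 ± 7.51 CPM. Its log2 fold change of -2.51 (SE 0.81) had an adjusted p of 0.543 by edgeR's quasi-likelihood F test, adjusted after Benjamini-Hochberg over 15387 genes. By the same test *Cdh1* had -1.96 (SE 0.85, adjusted p = 0.637), *Epcam* -1.22 (SE 0.88, 0.773) and *Trp63* -1.15 (SE 0.82, 0.772). The simple keratins were nearer to 0, with *Krt8* at -0.76 (SE 0.71), *Krt18* at -0.27 (SE 0.29), *Krt7* at 0.15 (SE 0.31) and *Krt19* at 0.03 (SE 0.10), and adjusted p-values from 0.836 to 0.970. For a call, adjusted p had to be under 0.01 with a log2 fold change beyond 1 in either direction. It was met by 0 of the 8 members tested besides *Krt5*, against 0.0065% of all genes, and at an unadjusted p under 0.05 there were 2, *Krt14* and *Cdh1*, against 7.55% of all genes. DESeq2 also called 0 of the 8. The female WT libraries that helped to choose the group enter this contrast, so its p-values are not free of that choice.

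Of the 8 members tested besides *Krt5*, 6 had a lower fitted level in the female KO and their median log2 fold change was -0.95, against 0.00 over all genes. The group was chosen in part on its level in these female WT libraries, so a lower KO level can follow from that choice. The counts here are a description. For 1 of the 8 tested members besides *Krt5*, *Krt14*, every KO library lay below every WT library, which 8.2% of all tested genes showed. *Krt5* did so too, as a description. These differences leaned on 1 library. Without female WT replicate 3, *Krt5* was at -1.61, *Krt14* at -1.50 (SE 0.79), *Cdh1* at -0.30 (SE 0.70), *Epcam* at 0.56 (SE 0.81) and *Trp63* at 0.59 (SE 0.73), so that the last pair changed sign. Of these, adjusted p-values of the tested genes were 0.843 to 0.984 by edgeR's quasi-likelihood F test (Benjamini-Hochberg adjusted). *Krt7*, *Krt8*, *Krt18* and *Krt19* then lay between -0.50 and 0.13. The muscle list moved with that library too, its median log2 fold change over 7 tested genes being 0.08 with it and 1.14 without it, with 0 genes called in either fit. The part of muscle cells in the keratin values was not tested.

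**Figure D5:**
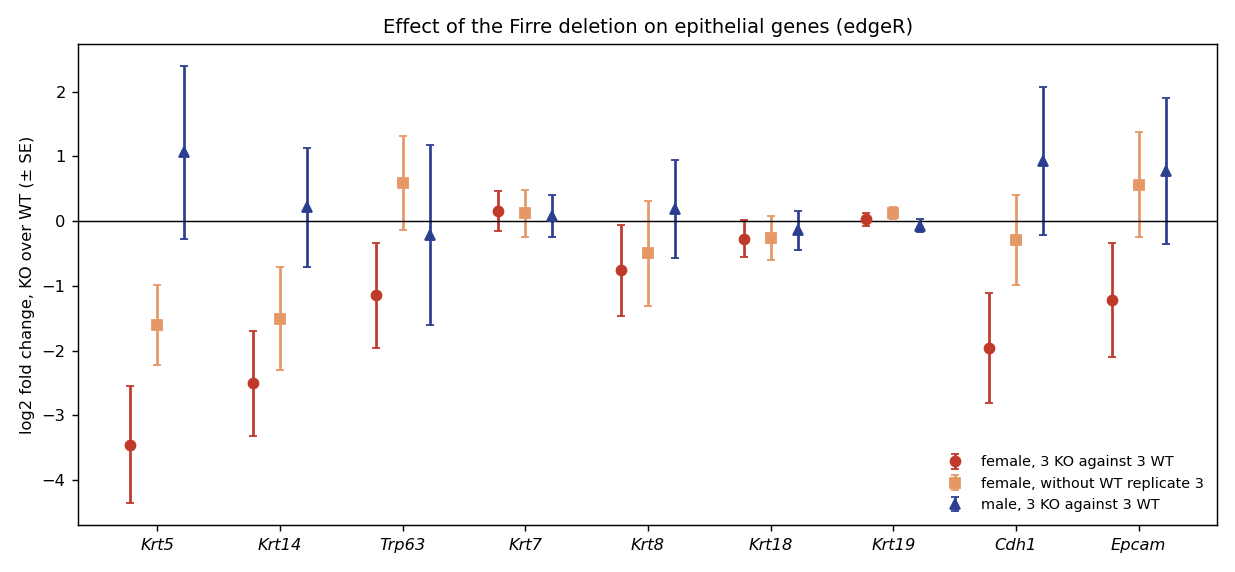
Fitted log2 fold change of KO over WT (± SE) for the 9 members in the fit, in female MEFs with all libraries (red circles), in female MEFs without WT replicate 3 (orange squares) and in male MEFs (blue triangles). The basal and adhesion genes move toward 0 or past it when that library is left out, and Krt7, Krt18 and Krt19 stay close to 0 throughout.

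In male MEFs 0 of the 9 members were called, against 0.0065% of all genes, 0 had an unadjusted p under 0.05 (2.06% of all genes), and DESeq2 called 0. *Krt5* averaged 0.187 ± 0.161 CPM in KO and 0.0828 ± 0.0633 CPM in WT (SD, n = 3), with a log2 fold change of 1.06 (SE 1.34). *Cdh1* was at 0.93 (SE 1.15), *Epcam* at 0.77 (SE 1.13), *Krt14* at 0.21 (SE 0.92), *Krt8* at 0.18 (SE 0.76), *Krt7* at 0.08 (SE 0.32), *Krt19* at -0.07 (SE 0.10), *Krt18* at -0.14 (SE 0.30) and *Trp63* at -0.21 (SE 1.39). Every adjusted p was 1.00 by edgeR's quasi-likelihood F test (Benjamini-Hochberg adjusted). No member had all KO libraries below all WT libraries, as 2.52% of all genes did. The SEs over 1 of *Krt5*, *Cdh1*, *Epcam* and *Trp63* belong to genes of 0 to 23 counts per male library, where a difference was not detectable unless it was large. *Krt14* and *Krt8* had more counts and still SEs of 0.92 and 0.76. Low counts and spread between libraries were thus not told apart.

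The same-numbered male libraries had like values for some members and not for others. *Krt8* had 177 counts in WT replicate 3 and 189 in KO replicate 3, *Krt18* had 461 in each, and *Krt7* had 472 counts in WT replicate 2 and 461 in KO replicate 2. Against these stood *Krt5* at 1 count in WT replicate 3 and 18.8 in KO replicate 3, *Cdh1* at 4 and 23 in the same libraries, and *Krt18* at 424 and 263 and *Krt8* at 23 and 52 in replicate 1. With the replicate number as a block in the male libraries alone, an alternative added after seeing the data, *Krt8* was at 0.29, *Krt14* at 0.24, *Krt7* at 0.12, *Krt19* at -0.07 and *Krt18* at -0.13, and no member was called. That fit called 0 of its 14907 genes, not even the deleted gene, so this says little about the members.

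The difference between the sexes in the KO effect is a description with no test, because it holds the difference between female and male WT libraries by which the group was chosen. On the log2 scale it was -4.51 for *Krt5*, -2.89 (SE 1.42) for *Cdh1* and -2.72 (SE 1.22) for *Krt14*.

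Between female and male KO libraries, samples that the sex difference of the WT libraries had not used, 2 of the 4 simple keratins were called, *Krt7* and *Krt18*. Same-numbered male WT and KO libraries deviated together, so the male KO libraries are not fully separate from the choice of the group. *Krt7* averaged 15.4 ± 5.17 CPM in female KO and 5.40 ± 1.69 CPM in male KO (SD, n = 3), a log2 fold change of 1.51 (SE 0.32) with an adjusted p of 0.0038 by edgeR's quasi-likelihood F test (Benjamini-Hochberg adjusted). By the same test *Krt18*, at 14.4 ± 2.32 and 5.97 ± 2.45 CPM, was higher by 1.28 (SE 0.30, adjusted p = 0.0066). *Krt19* differed by 0.70 (SE 0.10, adjusted p = 0.000384), under the fold limit of a call. *Krt8* at 1.22 (SE 0.74, 0.213), *Trp63* at 2.52 (SE 1.12, 0.0970), *Cdh1* at 1.35 (SE 0.97, 0.297), *Krt14* at 1.17 (SE 0.87, 0.314) and *Epcam* at 0.94 (SE 0.99, 0.483) were not called. *Krt5* was at 1.56, as a description.

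The 2 called of 8 tested stood against 2.31% of all genes called higher in female KO. All female KO libraries were above all male KO libraries for 4 of the 8 tested members besides *Krt5* (*Trp63*, *Krt7*, *Krt18* and *Krt19*), as for 24.5% of all tested genes. *Trp63* reached 10 counts in 3 libraries, all female. It thus entered the fit only through the sex where it was higher, and its place in this count says little. These calls were not firm: 0 members were called without female KO replicate 3 or without male KO replicate 1, and 1 without any other KO library, without female WT replicate 3, which shares the estimate of spread, or with only the 6 KO libraries in the fit. *Krt18* had an adjusted p of 0.0126 in the fit of KO libraries alone by edgeR's quasi-likelihood F test (Benjamini-Hochberg adjusted).

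Markers of other cells differed in the same contrast. Of the macrophage list 9 of 10 tested genes were called higher in female KO, its sum being 43.0 to 135.3 CPM against 8.77 to 18.2 CPM in male KO. Of the skeletal muscle list 4 of 7 tested were higher (87.3 to 146.5 against 78.8 to 115.3 CPM), as were 4 of 7 Schwann and neural genes (79.9 to 113.6 against 56.0 to 69.2 CPM), and 1 of 2 melanocyte genes, *Tyr*, was lower. Of the mesothelial list, whose cells make simple keratins, 0 of 6 were called, but all 6 had a higher fitted level in female KO, with a median log2 fold change of 0.92 beside 1.25 for the 4 simple keratins, and a sum of 21.3 to 40.5 against 15.4 to 24.0 CPM. No gene of these lists was at 0 in all 12 libraries. The part of these cells in the keratin values was not tested.

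Between female and male WT MEFs, described with no test, all 9 members in the fit had every female library above every male library, as had 25.5% of all genes in the fit. *Krt15*, which was not in the fit, did not. The log2 fold changes were 6.07 for *Krt5*, 4.25 for *Cdh1*, 3.89 for *Krt14*, 3.46 for *Trp63*, 2.93 for *Epcam*, 2.17 for *Krt8*, 1.44 for *Krt7*, 1.41 for *Krt18* and 0.61 for *Krt19*. Without female WT replicate 3 they were 4.23 for *Krt5*, 2.58 for *Cdh1*, 2.88 for *Krt14*, 1.72 for *Trp63* and 1.15 for *Epcam*, and 1.90, 1.47, 1.40 and 0.51 for the simple keratins in the same order.

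The wider epithelial program was read from 5 lists of desmosome, tight junction, basement membrane attachment, epithelial regulator and other keratinocyte genes. Of 48 genes listed, 46 were matched in the table and 30 were tested. In female KO against WT 0 of 30 were called, 25 had a lower fitted level and the median log2 fold change was -0.41. Epithelial markers as a group were chosen on a contrast that used the same female WT libraries, so this lean is not free of that choice. Without female WT replicate 3, 16 of 30 were lower and the median was -0.06. In male KO against WT 0 of 30 were called, 15 were lower and the median was -0.01. Abundant genes of these lists, *Itga6* (basement membrane attachment), *Jup* and *Perp* (desmosome), *Cldn1* and *Cldn4* (tight junction), *Klf5* and *Esrp2* (regulators) and *Sfn* and *Krt10* (keratinocytes), were detected in all 12 libraries. In female against male KO 5 of 30 were called higher and 0 lower, against 2.31% and 1.58% of all genes. Those higher included *Dsp* at 1.66 (SE 0.35), *Cgn* at 1.55 (SE 0.28), *Cldn3* at 2.00 (SE 0.32) and *Esrp2* at 1.08 (SE 0.15) on the log2 scale.

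Promoters of members were set side by side. RefSeq sequences (GRCm38.p6) were at hand for 6 of 10 members, *Krt5*, *Krt14*, *Krt7*, *Krt8*, *Krt18* and *Epcam*. The 250 bases before the start of *Krt5* (chr15:101712906-101713155, minus strand) and *Krt14* (chr11:100206031-100206280, minus strand) are printed because this pair had the highest r of the 45 pairs in female libraries. Capitals mark the E-box CACCTG, the letters bound by Snai and Zeb repressors, or its reverse complement.

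Krt5: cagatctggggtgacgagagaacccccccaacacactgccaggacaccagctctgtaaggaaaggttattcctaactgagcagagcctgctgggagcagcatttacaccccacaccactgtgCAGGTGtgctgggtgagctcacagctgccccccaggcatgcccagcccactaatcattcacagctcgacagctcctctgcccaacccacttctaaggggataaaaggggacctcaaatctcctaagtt

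Krt14: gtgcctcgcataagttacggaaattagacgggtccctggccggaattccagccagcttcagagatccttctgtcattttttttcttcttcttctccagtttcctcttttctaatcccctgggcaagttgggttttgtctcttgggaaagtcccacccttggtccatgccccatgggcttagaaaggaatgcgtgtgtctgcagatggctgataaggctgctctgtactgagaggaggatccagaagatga

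Both strands were searched. CACCTG was found at -128 in *Krt5*, -111 in *Krt8*, -214 in *Krt18*, -44 in *Krt7* and -187 and -19 in *Epcam*, and not in this window of *Krt14*. It was present in 17.2% of 32851 promoters of the same length. TATAAA (12.4% of promoters) and TGANTCA (6.75%) had no match in the 6, and GGGCGG (32.7%) matched in *Krt7* and *Epcam*. The window of *Krt14* held no match to any of the 4 motifs, so it could share none with *Krt5* or with another member.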

How the data were processed

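RNA-seq libraries of WT and *Firre* KO MEFs of both sexes (12 libraries, 4 groups of 3) were analysed. The authors aligned filtered reads to mm9 with Bowtie 2, estimated gene abundance with RSEM 1.2.29 and deposited expected counts that are not scaled for depth. The Hi-C files, which hold a contact signal, were not used. The members and gene lists were chosen with earlier results of these data known. The genes named were the 10 members, the 5 genes most like *Krt5*, 3 pairs and the 2 most abundant genes of each list, besides those marked as chosen later. Some items that these rules select are not reported here.

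Rounded expected counts of the 15387 genes that passed filterByExpr were fitted in edgeR 4.0.16 under R 4.3.3 (TMM, quasi-likelihood F test, 1 mean per group, 8 residual degrees of freedom, Benjamini-Hochberg adjustment), after the script was tested on simulated data. Calls used the study's thresholds (adjusted p under 0.01, absolute log2 fold change over 1). Correlations were computed on log2(CPM + 1) with exact two-sided permutation tests (720 orders of 6 libraries, or the 48 that keep same-numbered male libraries together). All 37310 gene identifiers were found in the mm9 annotation, from which coordinates and exon lengths were taken. A count of 0 was given an upper limit of 3 counts, which covers counting error only.

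Alternatives were DESeq2 1.42.0, its size factors, library size alone, no filter, a mean CPM of 1, fits of only those libraries under comparison, a looser call (adjusted p under 0.05, any fold), a replicate block and leaving out each library. Same-numbered libraries deviated together in male MEFs (r = 0.24, 0.41 and 0.50 between WT and KO) but not in female MEFs (-0.26, -0.13 and -0.18), so that the numbers pair the male libraries only. The source of the male pairing is not given in the sources used here.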

Additional observations from a re-analysis of the deposited data

How the results depend on the processing

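The counts of called members kept their side of the threshold under every alternative for female KO against WT and male KO against WT (0 in each, also over the leave-one-out fits, 0 to 0). With the replicate block 0 members were called in both KO contrasts (log2 fold change of *Krt14* -2.25 in female and 0.24 in male MEFs), and 0 of all 15387 genes were called too. The paired fit of the male libraries alone called 0 members and 0 of its 14907 genes. Even the deleted gene was not called in these fits, so they say little about the members. Female KO against male KO gave 2 members called with the block as without it, 1 with only the libraries compared, and 0 to 1 over the leave-one-out fits. The median pair correlation ranged from -0.14 to 0.69 in female and -0.024 to 0.27 in male libraries when a library was left out. *Krt8* with *Krt18* in female libraries turned to -0.34 with the WT and KO means removed, and ranged from -0.0091 to 0.56 over the leave-one-out values. In male libraries *Krt5* with *Krt14* ranged from -0.47 to 0.97 and *Krt5* with *Krt8* from -0.54 to 0.94. In female KO against WT, leave-one-out log2 fold changes that changed sign ran for *Epcam* from -2.21 to 0.56, *Krt19* from -0.061 to 0.13, *Krt7* from -0.15 to 0.31 and *Trp63* from -1.62 to 0.59. In male KO against WT, leave-one-out log2 fold changes that changed sign ran for *Cdh1* from -0.42 to 1.43, *Krt14* from -0.93 to 1.34, *Krt18* from -0.52 to 0.11, *Krt19* from -0.11 to 0.013, *Krt7* from -0.17 to 0.49, *Krt8* from -0.88 to 1.39 and *Trp63* from -0.68 to 0.35. For the difference between the sexes, leave-one-out log2 fold changes that changed sign ran for *Krt18* from -0.38 to 0.25, *Krt7* from -0.34 to 0.33, *Krt8* from -2.15 to 0.12 and *Trp63* from -1.49 to 0.80. In female against male KO, leave-one-out log2 fold changes that changed sign ran for *Epcam* from -0.055 to 1.71. The causes of these shifts were not tested. Counts limit what depth can show: of 12 libraries, *Krt15* and *Trp63* had under 25 counts in 11, *Epcam* in 10, *Cdh1* in 9 and *Krt5* in 8, and *Krt14* in 4 of the 6 male libraries.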

Other observations

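Among male libraries the lowest correlations were found in a pair of simple keratins and in a basal with a simple keratin, pairs chosen after their values were seen and neither past the threshold after adjustment. *Krt7* with *Krt18* had r = -0.94 and rho = -0.89 (exact permutation p = 0.0167 and 0.0333, adjusted 0.250 and 0.500 over 90 relations; both 0.0833 with same-numbered libraries kept together, adjusted 0.469 and 0.703 over 45), and r = -0.88 without male WT replicates 2 and 3. *Krt5* with *Krt19* had r = -0.92 and rho = -0.66 (exact permutation p = 0.0167 and 0.175, adjusted 0.250 and 1.00; 0.0625 and 0.417 with same-numbered libraries kept together, adjusted 0.469 and 1.00), which fell to -0.35 without replicate 3 of both genotypes.

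The ratio of *Krt18* to *Krt8* per length ran from 2.43 to 8.65 in female libraries and from 3.14 to 23.8 in male libraries, the highest being male WT replicate 1. *Krt14* exceeded *Krt5* per length in all 12 libraries, by 1.49-fold in female WT replicate 3 and by 2.02-fold to 82.2-fold in the others, the last in male WT replicate 3, which had 1 *Krt5* count. Further genes of female WT replicate 3 with no known tie to epidermis were *Cdh16* (109 counts against at most 17 elsewhere), a cadherin of kidney tubules, and *Chga* (33 against at most 6), a protein of neuroendocrine granules.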
